A study of Mus musculus with 8 samples.

Results

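This section covers SMAD4 binding around 6 genes of the angiopoietin and TIE receptor axis, Angpt1, Angpt2, Tek, Tie1, Ptprb and Foxo1, in MS1 cells, an established mouse endothelial line from pancreatic islets. The rule took every called peak whose summit lay inside a gene body or within 100 kb of it on mm10. It found 4 of 1133 peaks in the unstimulated list and 10 of 4333 in the stimulated list. All cells were serum starved for 24 h. The unstimulated group then received fresh medium, and the stimulated group received recombinant BMP9/10 at 1 ng/mL. Each condition had 2 SMAD4 immunoprecipitates (IP) and 2 input DNA libraries, which the authors merged before peak calling, so every value is that of a pool and has no replicate error. Both stimulated IP titles contain the unexplained letters KD. Those 2 libraries make up the whole stimulated IP pool, so no stimulated result could be given without them. Whatever the letters mark cannot be told apart from the ligand in any comparison of the lists. The lists rested on 52971023 unstimulated and 41044888 stimulated IP tags. No expression was measured, so the cell type could be set only beside peaks. By the same rule, 8 of 10 endothelial and 2 of 10 mural cell marker genes had an unstimulated peak, against 13.1% of all protein-coding genes. All 10 and 5 of 10 had a stimulated one, against 36.5%. The 2 mural genes with an unstimulated peak, Kcnj8 and Abcc9, shared that peak, and both are among the 5 with a stimulated one.

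Angiopoietins are secreted ligands of the endothelial receptor tyrosine kinase TIE2, which Tek encodes. Angiopoietin-1 activates TIE2 and stabilises vessels, while angiopoietin-2, released by endothelial cells, acts on the same receptor as a context-dependent agonist or antagonist. TIE1 is a related receptor that modulates TIE2, the phosphatase VE-PTP (Ptprb) removes phosphate from TIE2, and active TIE2 restrains the transcription factor FOXO1 through AKT. BMP9 and BMP10 signal in endothelium through ALK1 and receptor-activated SMADs, which enter the nucleus with SMAD4.

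In the stimulated list, SMAD4 peaks were called inside 3 of the 6 genes, Angpt2, Tek and Ptprb, and in the flank of Foxo1. Of the peaks inside these genes, only that in Ptprb had a −log10 q of at least 10. Without added ligand no peak lay inside any of the 6, and flanking peaks were called near Angpt2, Ptprb and Foxo1. Angpt1 and Tie1 had no peak in either list. Of all 21883 protein-coding genes, 1.98% held an unstimulated and 7.07% a stimulated peak inside the body. With the 100 kb flanks, 3 of 6 members had an unstimulated peak, against 13.1% of all genes, and 4 of 6 had a stimulated one, against 36.5%. Gene length bears on such shares, and 5 of the 6 members have bodies of at least 50 kb. Of the 4944 protein-coding genes that long, 17.4% held a stimulated peak inside and 41.5% had one inside or within 100 kb. For unstimulated peaks these shares were 5.30% and 14.9%. Of the 5 members that long, 3 held a stimulated peak inside and 4 had one inside or within 100 kb. For unstimulated peaks these counts were 0 and 3. This comparison was chosen after the results were seen. With 6 genes these counts are a description, and no test was made.

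**Figure D1:**
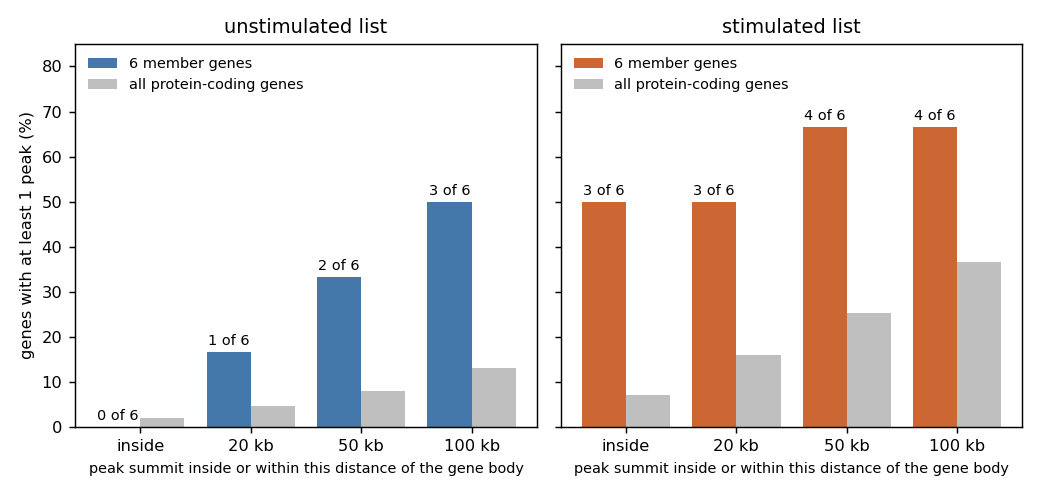
Percentage of genes with at least 1 peak summit inside the gene body or within 20, 50 or 100 kb of it, for the 6 member genes (coloured bars, with their number) and all 21883 protein-coding genes (grey bars), in the unstimulated list (left) and the stimulated list (right). The members rise from 0 of 6 to 3 of 6 with the window in the unstimulated list and from 3 of 6 to 4 of 6 in the stimulated list.

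Assigning each peak to the nearest protein-coding gene gave a different picture from the window. Of the 4 unstimulated peaks, 1 was nearest to a member (Foxo1). The others lay inside neighbouring genes, 2 in Mcph1 and 1 in Ptprr. Of the 10 stimulated peaks, 7 were nearest to a member, of which 1 lay inside both Angpt2 and Mcph1, and 3 lay inside Mcph1 or Ptprr alone. So 1 member was nearest to an unstimulated peak, against 3.79% of all protein-coding genes, and 4 were nearest to a stimulated one, against 12.2%. A nearest-gene table therefore lists no unstimulated Angpt2 or Ptprb peak, although peaks lay 26.2 and 8.48 kb from those genes.

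Start sites and strands were given for 3 members, Tek, Tie1 and Foxo1, in the RefSeq promoter table (GRCm38.p6, the assembly behind mm10). No peak of either list overlapped their windows, which run from 250 bp before to 50 bp after the start. Over all 32851 windows of the table, 0.426% overlapped an unstimulated and 2.23% a stimulated peak. Among 25 other pathway genes with a window, the promoters of Itgb1, an integrin subunit, and Pik3ca, the catalytic PI3K subunit, overlapped a stimulated peak and no unstimulated one. These 2 genes were singled out after their values were seen. The Itgb1 summit lay 28 bp before the start site (fold enrichment 3.62, pileup 28) and the Pik3ca summit 6 bp before it (2.88, pileup 22). The 250 bases before each start site, 5′ to 3′ in the direction of the gene, are shown to set the 3 member promoters without a peak beside the 2 promoters with one. Capitals mark GTCT in either direction, the SMAD-binding element core, and GGCGCC, a GC-rich BMP SMAD motif.
Tek promoter (chr4:94739039-94739288, plus strand): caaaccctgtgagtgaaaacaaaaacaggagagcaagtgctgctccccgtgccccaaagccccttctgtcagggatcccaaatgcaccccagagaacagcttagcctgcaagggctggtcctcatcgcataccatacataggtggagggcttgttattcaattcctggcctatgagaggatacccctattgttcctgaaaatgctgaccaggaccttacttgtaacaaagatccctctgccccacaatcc
Tie1 promoter (chr4:118489850-118490099, minus strand): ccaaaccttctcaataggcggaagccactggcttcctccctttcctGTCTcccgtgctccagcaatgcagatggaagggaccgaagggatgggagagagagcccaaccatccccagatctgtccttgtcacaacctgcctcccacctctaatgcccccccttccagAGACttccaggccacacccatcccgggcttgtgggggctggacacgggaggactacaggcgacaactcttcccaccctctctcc
Foxo1 promoter (chr3:52268087-52268336, plus strand): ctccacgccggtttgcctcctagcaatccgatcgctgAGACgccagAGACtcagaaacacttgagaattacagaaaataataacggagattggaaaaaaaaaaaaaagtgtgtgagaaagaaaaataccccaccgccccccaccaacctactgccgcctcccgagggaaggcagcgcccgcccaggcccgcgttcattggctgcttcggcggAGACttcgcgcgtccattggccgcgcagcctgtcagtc
Itgb1 promoter (chr8:128685404-128685653, plus strand): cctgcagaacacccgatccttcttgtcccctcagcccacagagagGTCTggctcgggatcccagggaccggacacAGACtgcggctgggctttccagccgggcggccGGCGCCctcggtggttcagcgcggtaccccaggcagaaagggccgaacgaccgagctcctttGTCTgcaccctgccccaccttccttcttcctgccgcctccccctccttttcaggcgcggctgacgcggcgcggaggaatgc
Pik3ca promoter (chr3:32396815-32397064, plus strand): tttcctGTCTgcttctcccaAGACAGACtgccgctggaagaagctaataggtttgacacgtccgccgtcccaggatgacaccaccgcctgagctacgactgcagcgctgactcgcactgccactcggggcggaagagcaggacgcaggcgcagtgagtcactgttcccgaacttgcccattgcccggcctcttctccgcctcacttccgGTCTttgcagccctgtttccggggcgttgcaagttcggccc

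The Tek stretch held GTCT 0 times, and those of Tie1 and Foxo1 held it 2 and 3 times. The promoters with a peak held it 3 times at Itgb1 and 4 times at Pik3ca. Searched on both strands, GTCT occurred in 82.9% of all 32851 stretches, with a median of 2 hits, so its presence sets none of these apart. GGCGCC occurred in 9.59% of stretches and, among the 5 shown, at Itgb1 alone. The longer CAGACA, which overlaps GTCT read on the other strand, occurred in 17.1% of all stretches and at both promoters with a peak, and in none of the 3 member promoters. The Pik3ca peak is 144 bp wide and covers the last 21 bases of its stretch. None of the GTCT hits in the stretch lies under the peak, and the CAGACA lies 219 bp from it. The Itgb1 peak is 209 bp wide and covers the last 114 bases of its stretch. That part holds 1 of the 3 GTCT hits and the CAGACA, while the GGCGCC lies 24 bp outside the peak. The parts of both peaks beyond these stretches were not searched. The palindrome GTCTAGAC (0.167% of stretches), the forkhead motif TGTTTAC (3.17%) and CATTTCC (6.25%) were in none of the 5. The ETS core GGAA, which CATTTCC holds on the other strand, occurred in 93.4% of stretches, 7 times at Tie1 and 2 times each at Tek and Foxo1. It occurred 4 times at Itgb1 and 6 times at Pik3ca. GC content was 51.2% at Tek, 60.4% at Tie1 and 56.0% at Foxo1, against a median of 52.4% over all stretches. The promoters with a peak were richer in GC, with 68% at Itgb1 and 61.6% at Pik3ca, against an upper quartile of 61.2%. The bases under the peaks near the members were not searched, as no genome was used here.

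The ligand genes differed from each other. Angpt2 (chromosome 8, 18690263 to 18741562) lies wholly inside Mcph1 (18595116 to 18808089), a gene for a chromosome condensation regulator, and every peak called inside Mcph1 lay in the Angpt2 window. A stimulated peak was called inside Angpt2 (18711716 to 18711984), 21.5 kb from the lower-coordinate end of the body. Its pileup, the number of extended IP tags over the summit, was 32. Its fold enrichment, the authors' ratio of pileup to local background, was 4.12, higher than that of 37.8% of the stimulated peaks. Beyond the higher-coordinate end, 2 sites were called in both lists.

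The nearer of those Angpt2 sites had an unstimulated peak of 211 bp (18767714 to 18767924, 26.2 kb away) and a stimulated peak of 742 bp (18767615 to 18768356, 26.6 kb away). Per 1000000 IP tags, its pileup was 0.642 (95% counting interval 0.445 to 0.897) unstimulated and 1.07 (0.779 to 1.44) stimulated, a ratio of 1.67 (1.04 to 2.69). Fold enrichment was 3.89 and 7.26. The stimulated peak was wider than 99.4% of its list, and its summit lay 402 bp from the unstimulated one, a larger shift than at 99.9% of the 1078 shared pairs on the assembled chromosomes. The farther Angpt2 site (unstimulated 18770781 to 18770927, stimulated 18770769 to 18770996, both 29.3 kb away) had summits 2 bp apart. Its pileup per 1000000 IP tags was 0.661 (0.460 to 0.919) and 0.853 (0.594 to 1.19), a ratio of 1.29 (0.784 to 2.12), whose interval includes 1. Fold enrichment there was 4.0 and 4.50. Only the nearer site's counting interval lay above 1. Each pileup is that at its own list's summit, and tags were extended to 100 bp. The ratio at the nearer site therefore compares positions 402 bp apart and does not measure a gain at the same position. The authors' pooled calls also carry no biological error.

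Angpt1 (chromosome 15, 42424667 to 42676977), whose product is the activating ligand of TIE2, had its closest summit 977 kb away in the unstimulated and 812 kb away in the stimulated list.

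Among the receptors, Tek (chromosome 4, 94739086 to 94874976) had 2 stimulated peaks and no unstimulated one. The peaks lay inside the body, 13.5 and 29.5 kb downstream of the start site (94752730 to 94752869 and 94768716 to 94768886). The nearer had a pileup of 26, or 0.633 per 1000000 IP tags (0.414 to 0.928), and a fold enrichment of 3.46, above 18.0% of stimulated peaks. The farther had 39, or 0.95 (0.676 to 1.30), and 4.0, above 32.5%. By p-value they ranked 3355 and 1694 of the 4333. Both were narrow, at 140 and 171 bp, against a list median of 207 bp. The next stimulated summits lay outside the 100 kb window, 136 kb away inside Plaa (fold enrichment 3.36) and 178 kb away beside Jun (3.45). The closest unstimulated summit was 209 kb from Tek.

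Tie1 (chromosome 4, 118471191 to 118489849), the smallest of the 6 bodies at 18.7 kb, had no summit closer than 1543 kb in the unstimulated and 635 kb in the stimulated list.

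The phosphatase gene Ptprb (chromosome 10, 116275502 to 116389538) had the peaks of highest fold enrichment in the axis. A stimulated peak inside it (116297884 to 116298168, 22.6 kb from the lower-coordinate end) had a fold enrichment of 9.27, above 97.3% of its list, with a pileup of 37. Its local background, 0.0755 per 1000000 IP tags, was the lowest of the member peaks. By pileup it was below the nearer shared Angpt2 site (44) and the farther Tek peak (39), both stimulated. No unstimulated peak was called there. A shared site 8.48 kb below the gene body (unstimulated 116266937 to 116267087, stimulated 116266615 to 116267165) lay inside Ptprr, another receptor-type phosphatase gene. Per 1000000 IP tags its pileup was 0.812 (0.587 to 1.09) unstimulated and 1.24 (0.925 to 1.63) stimulated, with a ratio of 1.53 and a counting interval from 1.00 to 2.35. The authors' fold enrichment did not follow that order, with 7.72 unstimulated and 7.43 stimulated. The local background per 1000000 tags, recovered from the files, was 0.0887 and 0.146 there. Fold enrichment was lower in the stimulated list at 186 of the 1078 shared pairs (17.3%).

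The transcription factor gene Foxo1 (chromosome 3, 52268337 to 52350109) had no peak inside its body and 3 stimulated peaks beyond its downstream end. They lay 41.4 kb (52391369 to 52391642), 65.3 kb (52415146 to 52415668) and 93.9 kb away (52443656 to 52444114), or 123, 147 and 176 kb from the start site. Foxo1 was the only protein-coding gene within 100 kb of each. A pseudogene, Gm34303, was closer to all 3. Their fold enrichments were 6.33, 3.44 and 5.0, and their pileups 37, 30 and 29. The farthest overlapped an unstimulated peak by 64 bp (52444051 to 52444184, fold enrichment 3.50). At that site the pileup per 1000000 IP tags was 0.642 (0.445 to 0.897) and 0.707 (0.473 to 1.01), a ratio of 1.10 (0.647 to 1.86) that does not differ from 1 beyond counting error. This farthest site is also the one closest to the edge of the 100 kb window.

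**Figure D2:**
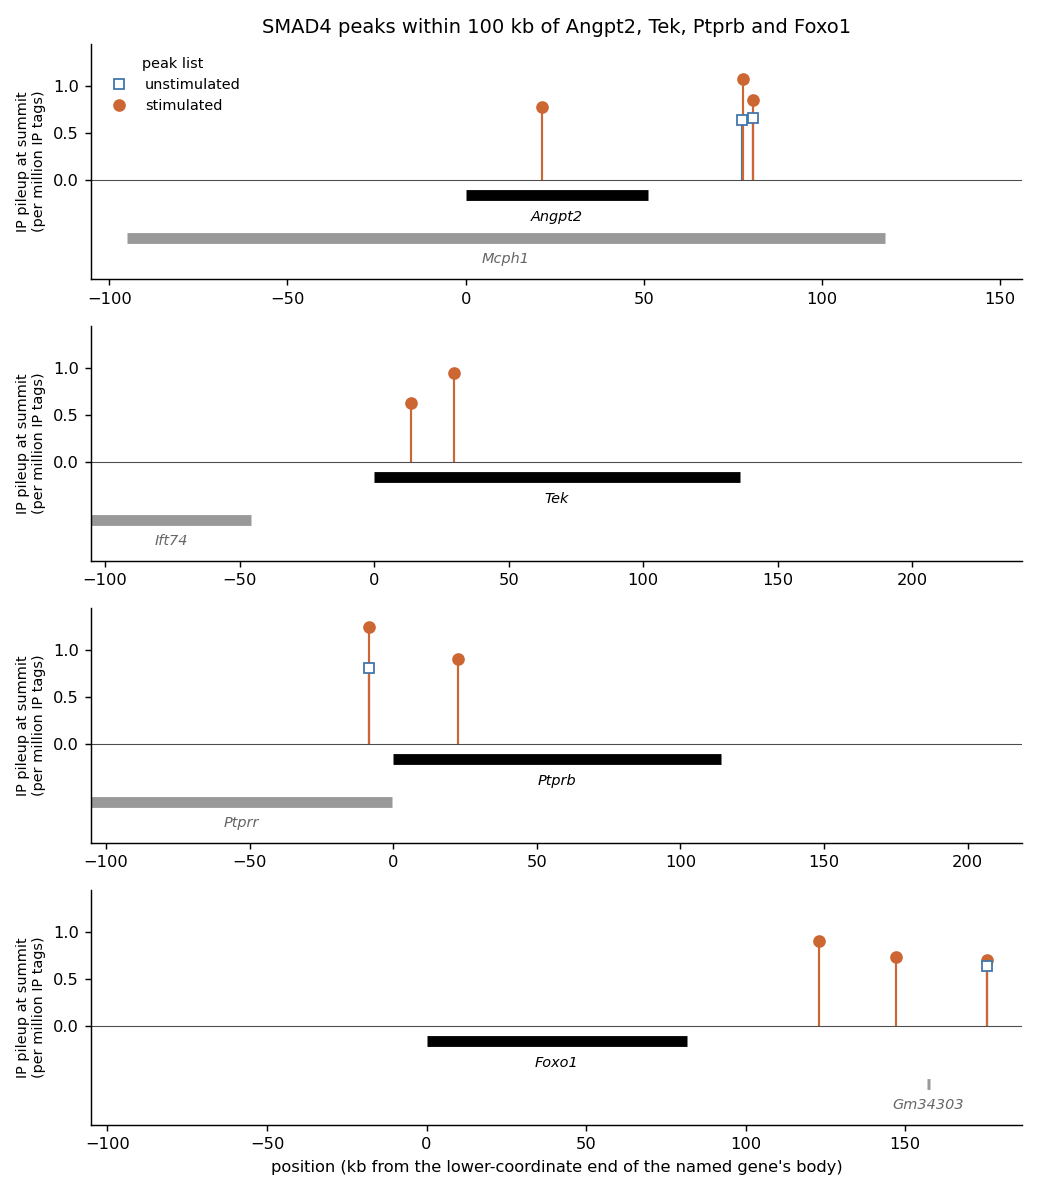
Pileup at each peak summit per 1000000 IP tags (vertical axis) against position in kb from the lower-coordinate end of the gene body (horizontal axis), for the 4 members with peaks. Open squares are unstimulated and filled circles stimulated peaks, black bars are the member gene bodies, and grey bars show 1 neighbouring gene per panel, cut at the panel edge. Stimulated peaks inside Angpt2, Tek and Ptprb have no square beside them, while 4 sites outside the bodies carry both symbols.

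Set side by side, all 4 unstimulated peaks near the members overlapped a stimulated peak, against 95.9% of the whole unstimulated list. Conversely, 4 of the 10 stimulated peaks had an unstimulated counterpart, against 24.9% of the whole stimulated list. The ratios of pileup per tag at the 4 shared sites ran from 1.10 near Foxo1 to 1.67 near Angpt2, with a median of 1.41. The 1.67 compares summits 402 bp apart, and pairing only summits within 100 bp gave a median of 1.29. Over all 1078 shared pairs the median ratio was 1.47 (interquartile range 1.29 to 1.68). The stimulated pileup per tag was the higher at 1061 of those pairs (98.4%). The counting interval lay above 1 at 2 of the 4 sites, narrowly at Ptprb, and at 36.6% of all shared pairs. Widths grew more than the pileups. The stimulated peak was 3.52 times as wide as the unstimulated one at the nearer Angpt2 site, 3.65 times at Ptprb and 3.43 times at Foxo1, against a median of 1.58 over all shared pairs (interquartile range 1.26 to 2.08). The farther Angpt2 site had 1.55. Width depends on how much of a site clears the authors' threshold, and the part of that threshold in the widening was not tested.

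**Figure D3:**
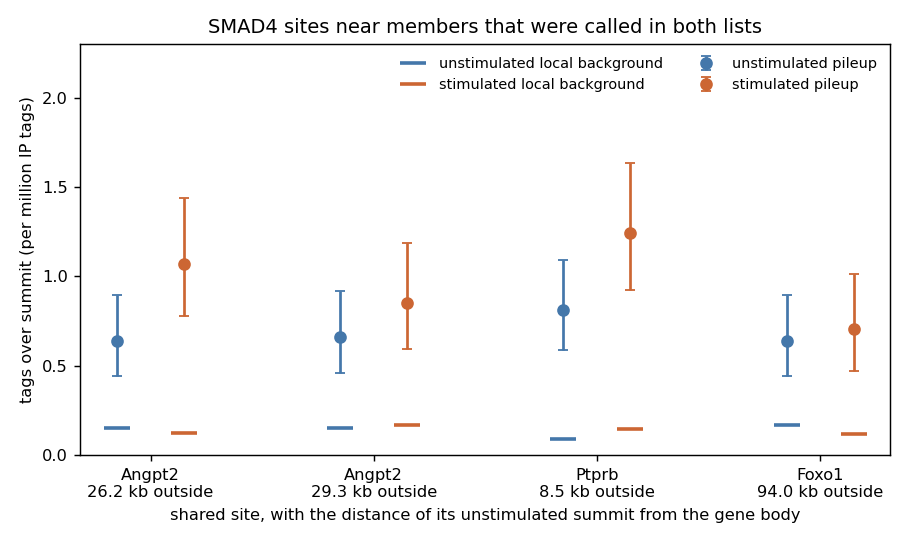
IP pileup at the summit (points, with 95% counting intervals) and local background (short bars), both per 1000000 IP tags, at the 4 sites near members that were called in both lists. Stimulated points lie above unstimulated ones at all 4 sites, as at 98.4% of all 1078 shared pairs. They run from 0.707 against 0.642 at Foxo1 to 1.24 against 0.812 at Ptprb, and the intervals of each pair overlap. Each point is at its own list's summit, and these are 402 bp apart at the nearer Angpt2 site.

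The other 6 stimulated peaks had no unstimulated counterpart, and the files give no unstimulated pileup at such places. What could be computed was the unstimulated pileup that would have reached the lowest −log10 p of that list, 6.03, had the local background per tag been the same in both conditions. That background had a median ratio of 1.00 over the shared pairs, with an interquartile range from 0.821 to 1.29. A called peak must also span 100 bp or more, the lowest width in either list, which this level leaves aside. The level is computed and not observed, yet the intervals below treat it as a count. The 6 sites were also selected by their stimulated call, so the ratios and intervals are a description and no test. Inside Ptprb, 17 tags (0.321 per 1000000) would have been enough, and the stimulated pileup of 0.901 was 2.81 times that level (counting interval on both counts 1.54 to 5.32). At the Foxo1 site 41.4 kb away it was 2.17 times that level (1.25 to 3.86). The intervals at the other 4 sites included 1. The ratio was 1.53 (0.888 to 2.65) inside Angpt2, 1.29 (0.72 to 2.31) and 1.62 (0.987 to 2.69) at the Tek sites, and 1.34 (0.774 to 2.31) at the Foxo1 site 65.3 kb away. At those 4 sites, among them both Tek peaks, an unstimulated pileup just short of the threshold would not be distinguishable from the stimulated one at this depth.

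**Figure D4:**
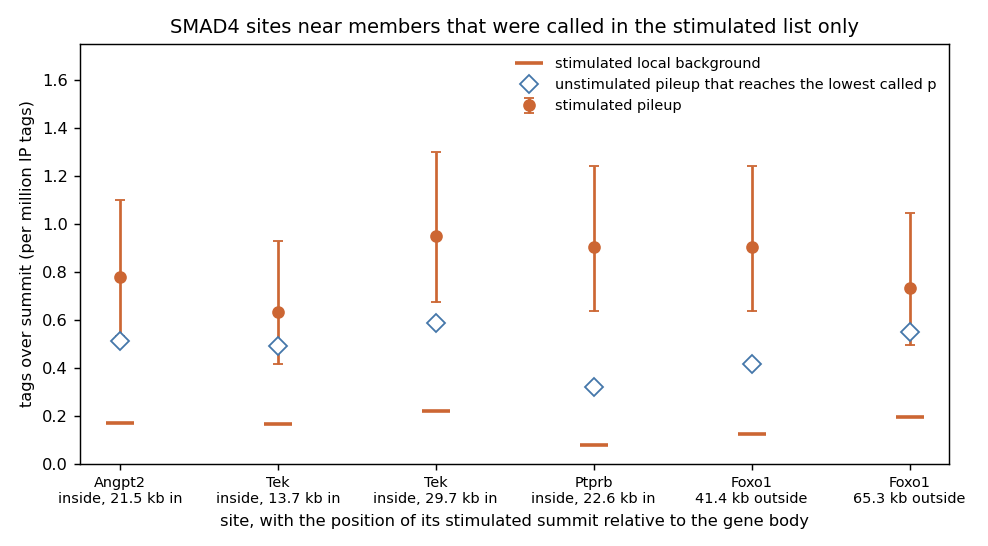
Stimulated pileup at the summit (filled circles, with 95% counting intervals), stimulated local background (short bars) and the unstimulated pileup that would reach the lowest called p-value at the same background per tag (open diamonds), all per 1000000 IP tags, at the 6 sites called in the stimulated list alone. The gap between circle and diamond is widest inside Ptprb (0.901 against 0.321) and narrowest at the nearer Tek site (0.633 against 0.491).

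Of 32 other genes of the pathway, 6 had an unstimulated peak (18.8%, against 13.1% of all genes) and 17 a stimulated one (53.1%, against 36.5%). Of the 32, 4 were nearest to an unstimulated peak, against 3.79% of all genes, and 10 to a stimulated one, against 12.2%. All 3 integrin genes, whose products bind angiopoietins, had a stimulated peak. The strongest near Itga5 (fold enrichment 10.5) lay 38.9 kb away and nearest to Gpr84, where the unstimulated list gave 5.45. Itgav had 2 unstimulated and 5 stimulated peaks, and its strongest (8.57) lay 7.38 kb away. Cdh5, which encodes VE-cadherin, a partner of VE-PTP at junctions, had 2 and 3 peaks. Of 13 adaptor and signalling genes, 0 had an unstimulated peak and 4 a stimulated one (30.8%, against 36.5% of all genes). Only 1 of the 13, Pik3ca, was nearest to a stimulated peak. The related genes Foxo3, Foxo4 and Foxo6 had no peak in either list.

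All 8 genes listed as FOXO targets had a stimulated peak within 100 kb, against 36.5% of all genes, and 3 of 8 had an unstimulated one, against 13.1%. At 5 of the 8, at least 1 stimulated peak was nearest to the gene itself, against 12.2% of all genes. At Esm1, which encodes endocan, that was 1 of 3 peaks, and its strongest was nearest to Gzmk. Pdgfb, which encodes the growth factor that recruits mural cells, had 3 unstimulated and 5 stimulated peaks, the strongest 1.2 kb away with a fold enrichment of 7.34. Klf2, a flow-responsive transcription factor gene, had 1 and 3 peaks, with 5.0 and 6.86 at the strongest site, 8.00 and 7.99 kb away. Cdkn1b, which encodes the cell cycle inhibitor p27, had 2 and 7 peaks, of which 0 were nearest to it, and the strongest (8.11 and 8.38) lay 74.9 kb away, nearest to Ddx47. This list was written with earlier results of these data known, so its count is not independent evidence.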

How the data were processed

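ChIP-seq of 8 libraries in 4 groups of 2 was analysed as 1 deposited peak list per condition. Per the file headers, the authors merged the 2 IP and the 2 input libraries and ran MACS2 2.1.0.20140616 (q cutoff 0.01, 1 tag per position, tags extended to 100 bp). The 2 calls differed in band width, 300 unstimulated and 200 stimulated, and in tag size, 146 and 140 bp. The lowest −log10 p called was 6.03 unstimulated and 5.45 stimulated. The submitters' processing notes name mm10, and aligner details are not given in the sources used here. The authors deposited the pileup, a signal of extended tags, without scaling, and it was divided here by the IP tags after filtering. The authors deposited fold enrichment as the ratio of 1 plus the pileup to 1 plus the local background. They also deposited −log10 p and −log10 q for each peak. Solving that ratio for the local background gave a Poisson −log10 p that differed from each deposited one by less than 1%.

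Genes came from a RefSeq table (GRCm38.p6, 21883 protein-coding genes on the assembled chromosomes). All peaks with a summit inside or within 100 kb of a member are given, each with its nearest gene. Of the other pathway genes, those with peaks in both lists and the 5 of highest stimulated fold enrichment are given. Esm1, Itgb1, Pik3ca, Foxo3, Foxo4 and Foxo6 meet neither rule and were named in addition. Sharing required 1 bp of overlap, and pairs took the closest summits. Ratio intervals are exact binomial and pileup intervals exact Poisson, at 95%, for counting error only. The code was tested on simulated data. Members and lists were chosen with earlier results of these data known. Alternatives were other windows, stricter q, a shortened stimulated list, other overlap rules and other scalings. Python 3.11.15, numpy 2.4.6, pandas 2.3.3 and scipy 1.17.1 were used.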

Additional observations from a re-analysis of the deposited data

How the results depend on the processing

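No paired analysis was possible because the authors merged the libraries of each condition, so no replicate could be left out either. Gene bodies over curated models were not run, since the gene table gives 1 body per gene. The unstimulated peaks near members fell from 4 to 1 within 20 kb, to 0 inside bodies and to 1 at a −log10 q of at least 10, and the members with such a peak from 3 to 1, 0 and 1. The stimulated peaks fell from 10 to 5 within 20 kb and to 4 inside bodies, at that q minimum or in the list shortened to 1133 peaks. The last 2 settings kept no Tek peak and not the peak inside Angpt2, so of the members Ptprb alone still had a peak inside its body. Counting genes of any kind, 0 unstimulated and 4 stimulated peaks were nearest to a member, since Gm34303 took the Foxo1 peaks. A reciprocal overlap of at least 50% left 1 of the 4 shared stimulated peaks. Using fold enrichment in place of pileup per tag turned the Ptprb ratio from 1.53 to 0.962. The median ratio of the shared sites lay between 1.28 and 1.43 under the alternatives tried. Windows of 50 kb, a −log10 q of at least 5, and any base of the peak in place of its summit kept each count within 1.5 times.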

Other observations

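At the mural cell marker genes, which served as the other cell type, stimulated peaks were nearest to 1 of 10 genes, a share close to the 12.2% of all protein-coding genes. That gene was Kcnj8 (fold enrichment 6.23, 16.2 kb away), and the summit also lay 39.3 kb from Abcc9. At the 10 endothelial marker genes stimulated peaks were nearest to all 10, against 12.2% of all protein-coding genes, with the highest values at Vwf (9.70) and Egfl7 (8.88). Beyond the 100 kb window, Ptprb had a stimulated summit 192 kb away inside Cnot2 (6.29).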
